A study of Mus musculus with 7 samples.

Results

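Primitive streak regulators were followed here across 4 RNA-seq and 3 ChIP-seq libraries of mouse embryonic stem cells (ESCs). The set holds 10 genes, the transcription factors T, Eomes, Mixl1, Gsc, Evx1, Mesp1 and Sp5 and the secreted ligands Fgf8, Wnt3 and Wnt8a. They were listed by name, with earlier results of these data known, and all 10 were found among the 31498 genes of GENCODE M1 that have at least 200 bases to count. The question asked of them is how their RNA differs between ESC clones that keep or lack a distal super-enhancer of Sox2, and which promoter marks they carry in ESCs that have it.

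RNA-seq was performed in F123 ESCs, in which 1 copy of each chromosome comes from the CAST and the other from the 129 mouse strain. The wild type clone carries the super-enhancer on both alleles, CAST+/129- lacks it on the 129 allele, CAST-/129+ lacks it on the CAST allele and CAST-/129- lacks it on both. Each genotype is 1 clone and 1 library, so that no difference between genotypes has a replicate check and none was tested. The deletions were made with CRISPR, and after transfection the clones grew on a layer of mouse embryonic fibroblasts and were then passaged on gelatin without feeders before RNA was taken. H3K4me3, a mark of promoters, and H3K27ac, a mark of active promoters and enhancers, were measured by ChIP-seq in F123, and H3K27ac also in J1, an ESC line of 129 background that carries no deletion. These ChIP libraries also number 1 each.

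The primitive streak is the furrow at the posterior side of the gastrulating embryo through which epiblast cells pass to become mesoderm and endoderm. Wnt3 from the posterior epiblast and Nodal signals induce it, T and Mixl1 mark its cells, Eomes is needed for cells to leave it, Gsc marks its anterior end, and Fgf8 supports migration away from it. Wnt8a is a further Wnt ligand of the early streak, Sp5 is a zinc finger factor and a known target of Wnt signalling, Evx1 marks the posterior streak, and Mesp1 comes on in the mesoderm that emerges first. Most of them are low in ESCs kept in self-renewing culture.

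Because several of these genes are known to answer to Wnt signals, 2 promoter stretches that hold the letters bound by TCF/LEF factors, the nuclear effectors of Wnt, are shown before the values. The motif was searched as CTTTGAT or CTTTGAA on both strands, and the capitals mark the match. The stretch of T lies at chr17:8627038-8627137 of mm9, plus strand, 250 to 151 bases before the annotated start, and its match is on the minus strand. The stretch of Sp5 lies at chr2:70312830-70312929, plus strand, 150 to 51 bases before the start, with the match on the plus strand.
T: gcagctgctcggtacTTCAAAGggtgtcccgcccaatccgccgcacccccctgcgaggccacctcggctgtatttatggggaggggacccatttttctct
Sp5: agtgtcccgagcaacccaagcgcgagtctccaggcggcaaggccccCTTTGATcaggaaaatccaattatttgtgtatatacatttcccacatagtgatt

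The sequence before the start was read for 7 of the 10 genes, all but Fgf8, Mixl1 and Wnt8a. A TCF/LEF match stood within 250 bases before the start in 2 of the 7, against 7.11% of the 21993 protein-coding genes. No match to AATNCACA, the motif of the Nodal effector FOXH1, to the T-box motif TCACACCT or to the SOX motif CATTGTT stood in that window in any of the 7, where 2.88%, 0.946% and 3.06% of protein-coding genes have one. Within 2 kb on either side of the start, a TCF/LEF match stood in 5 of the 7, against 77.0% of protein-coding genes, and the FOXH1, T-box and SOX motifs stood in 3, 2 and 1 of the 7, against 51.8%, 16.5% and 42.6%. No test was made of these shares. The ratio of observed to expected CpG over 1 kb around the start was between 0.412 for Mesp1 and 0.930 for Gsc, above the median of protein-coding genes of 0.556 in all but Mesp1. A match describes the letters of the reference and not binding.

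Depth differed between the RNA-seq libraries. On the 31498 genes, the wild type library had 24848422 distinct alignments, CAST+/129- had 12458881, CAST-/129+ 6058939 and CAST-/129- 5831199, so that low levels are less precise in the mutant clones. Series of values run from wild type through CAST+/129- and CAST-/129+ to CAST-/129- below. Levels are given as FPKM, distinct alignments per kilobase of the gene, scaled to the alignments on genes, with exact 95% Poisson intervals, and a count of 0 is given the limit of 3 counts. Some alignments had a partner of the same length and strand 2 bases away, as 1 fragment counted by both of its ends can give, and counting such partners once removed between 17.6% and 19.8% of the alignments on these 10 genes. The intervals take alignments as independent, cover counting error only and are therefore too narrow. Sox2, the gene under the super-enhancer, was at 46.9%, 41.8% and 4.23% of its wild type level in the 3 mutant clones in that order. From wild type to CAST-/129- it had 10667, 2510, 1088 and 106 distinct alignments from 26058, 3387, 1428 and 120 reads. Repeated reads of Sox2 were thus most frequent in wild type, and the percentages hold for distinct alignments only. All 10 ESC markers, among them Pou5f1, Nanog and Zfp42, had counts in every library. The strand was kept in these libraries, and over the exons of the 10 genes 4773 alignments lay on the sense strand and 68 on the other, with 9 in introns.

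In wild type the set was near the floor of the measurement. Eomes at 3.89 FPKM and Wnt8a at 1.29 FPKM were the only members at or above 1 FPKM, and the sum over all 10 was 6.52 FPKM. CAST+/129- had a sum of 27.4, CAST-/129+ of 88.0 and CAST-/129- of 131.9, and 4, 9 and 8 members had at least 1 FPKM there. Eomes was the highest member in wild type and in both monoallelic clones, above the next one beyond counting error, while T was the highest in CAST-/129-, followed by Wnt8a and Fgf8, whose intervals overlap.

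**Figure D1:**
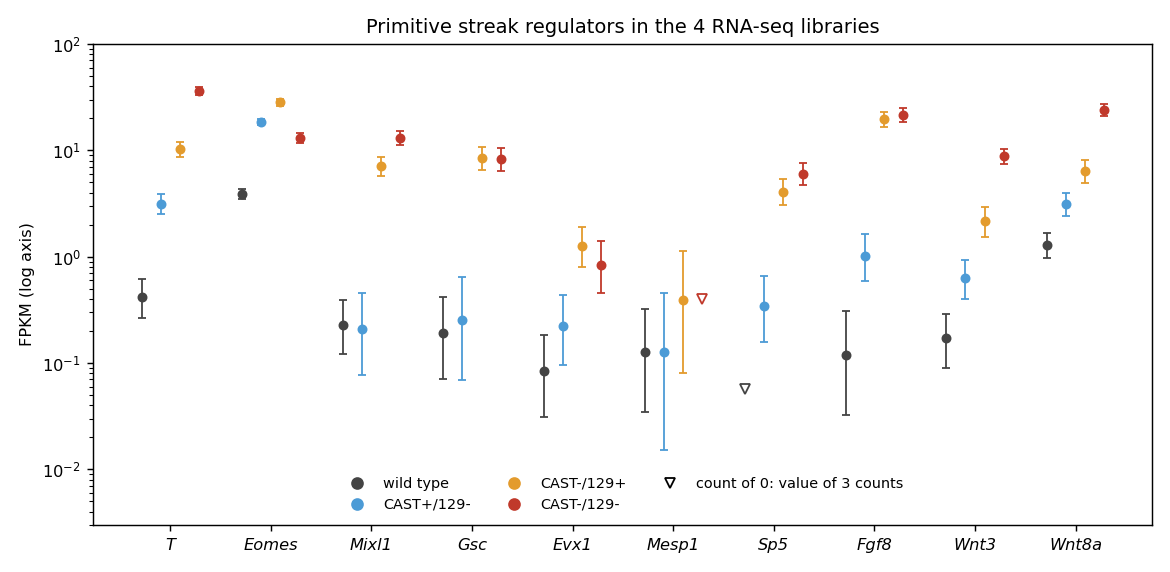
FPKM of the 10 genes on a log axis in the 4 RNA-seq libraries, 1 point per library, with exact 95% Poisson intervals as bars and an open triangle at the value of 3 counts where the count was 0. T, Wnt3 and Wnt8a are higher in each successive library, Eomes is highest in CAST-/129+, and Mixl1, Gsc, Fgf8 and Sp5 are low in wild type and CAST+/129- and high in the other 2.

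T, also called Brachyury, is the T-box factor that defines the streak and the notochord. It lies at chr17:8627288-8635361 on the plus strand of mm9 (ENSMUSG00000062327.3), with 2312 counted bases. The wild type clone had 24 counts, CAST+/129- had 91, CAST-/129+ had 144 and CAST-/129- had 490, or 0.418 FPKM (0.268 to 0.622), 3.16 (2.54 to 3.88), 10.3 (8.67 to 12.1) and 36.3 (33.2 to 39.7). No 2 of the 4 intervals overlap. Relative to wild type, T was 7.56-fold higher (4.78 to 12.4) in CAST+/129-, 24.6-fold (15.9 to 39.7) in CAST-/129+ and 87.0-fold (57.8 to 137) in CAST-/129-. All 8 exons of T were covered in CAST-/129-, with 21 to 187 alignments each. A further 44 sense alignments lay within 500 bases before its annotated start in that library, reaching 154 bases before it, with 15 in CAST-/129+, 14 in CAST+/129- and 4 in wild type. They end short of the TCF/LEF match at 235 to 229 in all but CAST+/129-, where they reach 288 bases.

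Eomes is the second T-box factor of the set and acts downstream of Nodal. It lies at chr9:118387330-118395250 on the plus strand (ENSMUSG00000032446.8). With 402, 949, 713 and 317 counts from wild type to CAST-/129-, it had 3.89 FPKM (3.52 to 4.29), 18.3 (17.2 to 19.5), 28.3 (26.3 to 30.5) and 13.1 (11.7 to 14.6). Its order differed from that of T. Both monoallelic clones were above CAST-/129- with intervals apart, and CAST-/129- was at 0.462 times CAST-/129+ (0.403 to 0.528). Relative to wild type, Eomes was 4.71-fold (4.19 to 5.30) higher in CAST+/129-, 7.27-fold (6.43 to 8.24) in CAST-/129+ and 3.36-fold (2.89 to 3.90) in CAST-/129-.

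Eomes is also a gene of the trophectoderm, the outer lineage of the blastocyst, and several other markers of that lineage were also higher in the mutant clones. Of all genes, 0.321%, 0.473% and 0.819% were past 3-fold up in CAST+/129-, CAST-/129+ and CAST-/129-. Of 9 trophectoderm markers measured, Eomes and Hand1 included, 3 were past 3-fold up in CAST+/129-, 4 in CAST-/129+ and 4 in CAST-/129-. Krt8, Krt18 and Hand1 were among them in each clone, with Eomes in CAST-/129+ and Ascl2 in CAST-/129-. Higher than wild type were 8 of the 9 in each clone, where between 30.9% and 33.5% of all genes were. The exception was Tead4, the highest of the 9 in wild type, with 28.3, 25.6, 16.6 and 10.4 FPKM. They summed to 50.9 FPKM in wild type and to 372.1, 595.9 and 570.3 in CAST+/129-, CAST-/129+ and CAST-/129-, mostly from the keratins Krt8 and Krt18, and none was at 0. Of those that did not pass, Elf5, a factor of the trophoblast stem cell, was highest in the monoallelic clones as Eomes was, with 2.12 and 4.27 FPKM there against 0.0274 in wild type and 0.117 in CAST-/129-. Cdx2 had 0.0712, 0.710, 1.09 and 1.59 FPKM from wild type to CAST-/129-. In bulk RNA a change in the share of cells and a change per cell cannot be told apart, and the part of trophectoderm-like RNA in the Eomes values was not tested.

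Mixl1 is a paired-type homeobox gene of the streak, at chr1:182623174-182627165 on the minus strand (ENSMUSG00000026497.7). Wild type had 13 counts and CAST+/129- 6, while CAST-/129+ had 99 and CAST-/129- 175, or 0.228 FPKM (0.121 to 0.390), 0.210 (0.0770 to 0.457), 7.12 (5.79 to 8.67) and 13.1 (11.2 to 15.2). Wild type and CAST+/129- overlapped, and the other 2 stood above both and apart from each other. Mixl1 was 31.2-fold (17.4 to 60.7) above wild type in CAST-/129+ and 57.4-fold (32.7 to 110) in CAST-/129-, while in CAST+/129- it was at 0.921 times wild type, with an interval of 0.287 to 2.60.

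Gsc, the homeobox gene of the anterior streak and the organizer, lies at chr12:105709419-105711537 on the minus strand (ENSMUSG00000021095.3). Its 4 libraries, from wild type to CAST-/129-, had 6, 4, 65 and 61 counts. These are 0.191 FPKM (0.0700 to 0.415), 0.254 (0.0692 to 0.650), 8.48 (6.55 to 10.8) and 8.27 (6.33 to 10.6). The clone without the CAST copy and the clone without both had about equal levels, at a ratio of 0.975 (0.676 to 1.40). Both were far above the other 2 libraries. All 3 exons of Gsc had alignments in these 2 clones.

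Evx1 and Mesp1 were near the floor. Evx1, a homeobox gene of the posterior streak at chr6:52263492-52268372 on the plus strand, had 6, 8, 22 and 14 counts, or 0.0839, 0.223, 1.26 and 0.835 FPKM. The intervals of CAST-/129+ and CAST-/129- overlap each other and lie above that of wild type. Its middle exon had 0 alignments in both of these clones. Evx1 faces a non-coding gene on the opposite strand, but only 2 of the alignments over its exons were on that strand. Mesp1, the basic helix-loop-helix factor of the earliest mesoderm at chr7:86937127-86938674 on the minus strand, had 4, 2, 3 and 0 counts in the same order, all within 0.388 FPKM. A count of 0 in CAST-/129- allows up to 0.404 FPKM, so that a level like that of wild type, 0.126 FPKM, was not detectable there.

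Sp5 lies at chr2:70312980-70315786 on the plus strand (ENSMUSG00000075304.2). No alignment fell on it in wild type, and the limit of 3 counts is 0.0575 FPKM there. CAST+/129- had 9 counts (0.344 FPKM, 0.157 to 0.653), CAST-/129+ had 52 (4.09, 3.05 to 5.36) and CAST-/129- had 74 (6.04, 4.75 to 7.59). Set against 3 counts in the wild type library, Sp5 was at least 5.98-fold higher in CAST+/129-, at least 71.1-fold in CAST-/129+ and at least 105-fold in CAST-/129-. The step between the monoallelic clones, 11.9-fold (5.80 to 27.4), was larger than the 1.48-fold (1.02 to 2.15) between CAST-/129+ and CAST-/129-. Most alignments lay in the second of its 2 exons, 67 of the 74 in CAST-/129-. The first exon, next to the TCF/LEF match shown above, had 7 there and 0 in CAST-/129+.

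Among the ligands, Fgf8 had the largest ratio to wild type. This fibroblast growth factor lies at chr19:45811288-45817405 on the minus strand (ENSMUSG00000025219.7). Wild type had 4 counts, CAST+/129- 17, CAST-/129+ 160 and CAST-/129- 169, or 0.119 FPKM (0.0325 to 0.305), 1.01 (0.589 to 1.62), 19.6 (16.6 to 22.8) and 21.5 (18.4 to 25.0). All 6 exons were covered in the last 2 libraries, which overlapped each other and stood above the other 2. Fgf8 was 8.48-fold (2.76 to 34.6) above wild type in CAST+/129-, 164-fold (62.8 to 609) in CAST-/129+ and 180-fold (69.0 to 668) in CAST-/129-, where the wide intervals come from the 4 counts in wild type.

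The Wnt ligands followed the order of T. Wnt3, at chr11:103635464-103679271 on the plus strand (ENSMUSG00000000125.5), had 13, 24, 40 and 158 counts from wild type to CAST-/129-, or 0.170 FPKM (0.0906 to 0.291), 0.626 (0.401 to 0.932), 2.15 (1.53 to 2.92) and 8.81 (7.49 to 10.3). Wnt8a, on the plus strand of chromosome 18 (ENSMUSG00000012282.2), had 56, 68, 67 and 244 counts, or 1.29 FPKM (0.975 to 1.68), 3.13 (2.43 to 3.96), 6.33 (4.91 to 8.04) and 24.0 (21.1 to 27.2). In both genes the 4 intervals stood apart, with the highest level in CAST-/129-. Wnt3 was 51.8-fold (29.4 to 99.4) above wild type in CAST-/129-, and Wnt8a 18.6-fold (13.8 to 25.3). From CAST-/129+ to CAST-/129- they differed by 4.10-fold (2.89 to 5.96) and 3.78-fold (2.88 to 5.04), where Fgf8 and Gsc did not differ beyond counting error.

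For counts of changed genes, 4 was added to each FPKM and a 3-fold difference was required, the rule of the study, which keeps genes of low FPKM from passing on a few reads and understates their change. By this rule 5 of the 10 members, T, Mixl1, Fgf8, Wnt3 and Wnt8a, were up in CAST-/129- relative to wild type, where 258 of all 31498 genes (0.819%) were up. The call of Wnt3 held in 5 of 11 alternative settings. With the share of all genes up in parentheses, 4 members passed with library sizes of all alignments (0.664%), both strands (0.794%) and reads before collapsing (0.835%). The same number passed with thinned libraries (0.806%) and with alignments 2 bases apart counted once (0.787%). With library sizes by median of ratios 6 passed (0.860%), and with each start position counted once 7 did (0.743%). In CAST-/129+ T, Eomes and Fgf8 were up, 3 of 10, where 0.473% of all genes were. T lost this call with library sizes of all alignments, at a log2 ratio of 1.38, and with reads before collapsing, at 1.47. This leaves 2 members in each, where 0.352% and 0.470% of all genes were up. In CAST+/129- no member passed, where 0.321% of all genes were up. Every member was too low in wild type to pass 3-fold down once 4 is added, so that no count in this direction is read. Of all genes, 0.511%, 0.330% and 0.305% were down in CAST-/129-, CAST-/129+ and CAST+/129-, the background of the pathway lists described further on. The log2 ratios of the members past 3-fold in CAST-/129- were 3.19 for T, 2.63 for Fgf8, 2.40 for Wnt8a, 2.01 for Mixl1 and 1.62 for Wnt3, and those in CAST-/129+ were 2.52 for Fgf8, 2.03 for Eomes and 1.69 for T.

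**Figure D2:**
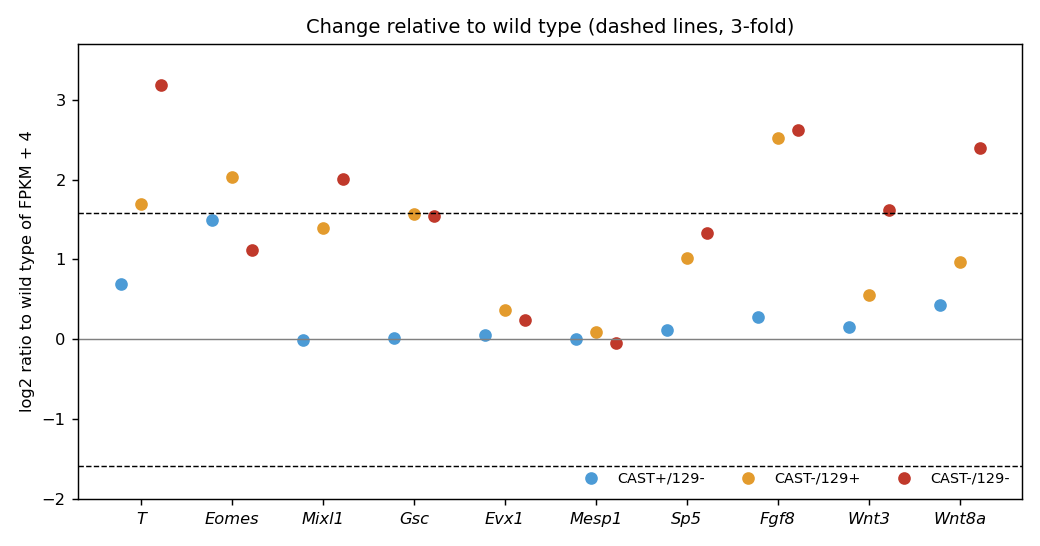
Log2 ratio to wild type of FPKM plus 4 for each gene, 1 point per mutant clone, with dashed lines at 3-fold up and down. In CAST-/129- 5 points lie above the upper line, in CAST-/129+ 3 points do, and the points of CAST+/129- all lie below it, with Eomes closest at 1.50.

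Gsc stood just under the threshold in 2 clones, with log2 ratios of 1.57 in CAST-/129+ and 1.55 in CAST-/129- against the 1.585 that 3-fold requires, and Wnt3 stood just above it. With 1 added in place of 4, 7 members passed in CAST-/129-, 7 in CAST-/129+ and 1, Eomes, in CAST+/129-, where 2.23%, 1.36% and 0.911% of all genes were up. With 10 added 3, 0 and 0 members passed, where 0.381%, 0.238% and 0.159% of all genes were up. The median log2 ratio over the 10 members was 1.58 in CAST-/129-, 1.21 in CAST-/129+ and 0.13 in CAST+/129-, where the median of all genes was 0.00 in each, and 1.58, 1.20 and 0.12 with counts of 0 set to 3. Members higher than wild type numbered 9, 10 and 8 in the same order, against 30.9%, 33.5% and 33.5% of all genes. These shares count genes equal in both libraries, such as those at 0 in both, as not higher. The counts of members include some within counting error of wild type. These were Mesp1 in CAST-/129+, with 3 counts against 4, and Gsc and Evx1 in CAST+/129-, with 4 against 6 and 8 against 6. All 3 comparisons share the wild type library.

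Set directly against CAST+/129-, the biallelic clone had T, Mixl1, Fgf8 and Wnt8a past 3-fold up, 4 of 10, where 0.257% of all genes were up. Set against CAST-/129+, it had 0 of 10, where 0.200% were up, although T, Wnt3 and Wnt8a were 3.54-fold, 4.10-fold and 3.78-fold higher in FPKM itself. The monoallelic clones also differed from each other, a comparison that was added after the data were seen. Fgf8 was past 3-fold up in CAST-/129+ relative to CAST+/129-, where 0.0889% of all genes were, and each of the 10 members was higher in CAST-/129+, against 35.9% of all genes. That share too counts genes equal in both libraries as not higher, and Mesp1 had 3 counts against 2. In FPKM itself the ratio was 33.9 (15.0 to 94.7) for Mixl1, 33.4 (12.4 to 126) for Gsc, 19.4 (11.7 to 34.1) for Fgf8 and 11.9 for Sp5, but 3.25 (2.49 to 4.28) for T, 2.03 (1.42 to 2.88) for Wnt8a and 1.55 (1.40 to 1.70) for Eomes. Sox2 itself was at 0.891 (0.829 to 0.957) in this comparison. Since each genotype is 1 clone, the allele that was deleted and the clone cannot be told apart.

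The RNA of fibroblast marker genes also differed between the genotypes. Of all genes, 0.819%, 0.321% and 0.473% were past 3-fold up in CAST-/129-, CAST+/129- and CAST-/129+. Of 14 fibroblast markers, among them the collagen genes Col1a1, Col1a2 and Col3a1, 10 were past 3-fold up in CAST-/129-, 4 in CAST+/129- and 3 in CAST-/129+. They summed to 27.4 FPKM in wild type, 139.7 and 131.3 in CAST+/129- and CAST-/129+, and 682.4 in CAST-/129-, and Lum was the only one at 0, in wild type. Between the monoallelic clones 7 of the 14 markers were higher in CAST-/129+ and 0 passed 3-fold, and the sum of the 10 streak genes was 27.4 and 88.0 FPKM. The fibroblast sum was higher than wild type in each mutant clone, as the sum of the streak genes was, and the part of fibroblast RNA in the differences between these libraries was not tested.

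**Figure D3:**
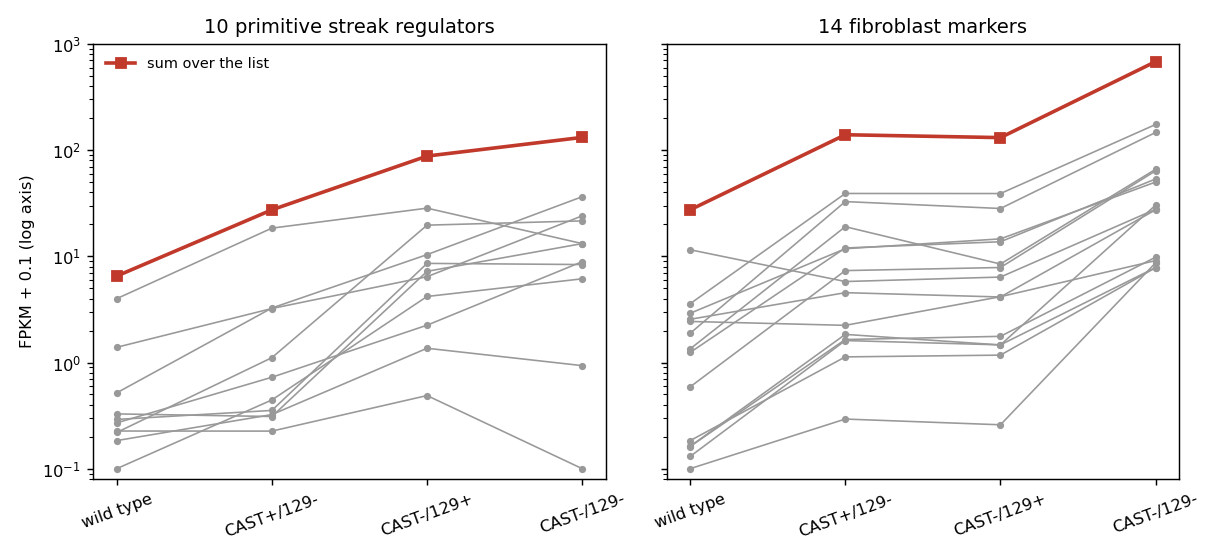
FPKM plus 0.1 of each gene (grey lines) and the summed FPKM (red) on a log axis, by library, for the 10 streak regulators on the left and 14 fibroblast markers on the right. The fibroblast sum is 139.7 and 131.3 FPKM in the monoallelic clones, and the sum of the streak regulators is 27.4 and 88.0 FPKM.

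The genes whose 3 log2 ratios to wild type came closest to those of each member past 3-fold in CAST-/129- were sought among the 13818 further genes whose FPKM averaged 1 or more. For T they were Col5a1, a collagen chain that is also in the fibroblast list, at a distance of 0.602 over the 3 log2 ratios, and Slc5a5, the sodium iodide symporter, at 0.631. For Wnt8a they were Mrc2, a collagen receptor, at 0.273 and the cell cycle inhibitor Cdkn2b at 0.305, and for Wnt3 Fkbp10, a collagen chaperone, at 0.109 and Syt13 at 0.127. For Fgf8 they were Trh, the precursor of thyrotropin-releasing hormone, at 0.657 and Prl2c2 at 0.662, and for Mixl1 Cxx1b at 0.500 and Pls3 at 0.518. By this choice the genes closest to Fgf8 share its near equal levels in CAST-/129+ and CAST-/129-. Trh had 22.8, 26.6, 109.8 and 114.4 FPKM from wild type to CAST-/129-, and Prl2c2 had 0.284, 4.06, 24.3 and 22.6.

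Within 1 Mb of the 10 genes there were 188 further genes that averaged 1 FPKM or more, counted once for each member, of which 0 were past 3-fold up in CAST+/129-, 1 in CAST-/129+ and 2 in CAST-/129-. The last count is 1.06% of the neighbours, against 1.83% of all 13818 such genes in CAST-/129-, with 0.532% against 1.06% in CAST-/129+, so that the neighbours were near the background. The genes past 3-fold were Lefty1, which shares this stretch of chromosome 1 with Mixl1, in both clones, and Serpina3h near Gsc in CAST-/129-. The median log2 ratio of the chromosomes that carry a member was between -0.10 and 0.04 in all 3 clones. The medians of the neighbours, 8 to 31 genes for each member, ranged more widely, in CAST-/129- from -0.27 around Eomes to 0.37 around Gsc, whose chromosome had a median of -0.06. This check was added after the data were seen.

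The pathways that act in the streak were described with 5 lists of 78 genes in all, the members left out. In CAST-/129- 6 of the 78 (7.69%) were past 3-fold up and 4 (5.13%) down, in CAST-/129+ 9 and 3, and in CAST+/129- 2 and 4. In CAST-/129+ 4 of the genes past 3-fold up were on the mesoderm and mesendoderm list. The others were 2 of the Nodal pathway, 2 of the Wnt ligands, receptors and secreted regulators and 1 of the FGF pathway. In CAST+/129- both, Hand1 and Otx2, were on the mesoderm and mesendoderm list. Hand1 is also a trophectoderm marker and Otx2 a neuroectoderm marker, and both also passed in CAST-/129+. These shares stand beside the background of all genes given above, which includes the many genes that are not expressed. The median log2 ratio of the 78 was 0.10, 0.07 and -0.03 in the same order.

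In the Nodal pathway, 2 of 13 genes were past 3-fold up in CAST-/129- and 0 down. Both are secreted inhibitors of Nodal. Lefty1 had 6.50, 23.9, 43.9 and 102.9 FPKM from wild type to CAST-/129-, the same order as T. Cer1 had 0.0463, 0.138, 14.3 and 37.4 FPKM, near the floor in CAST+/129- as Mixl1 and Gsc were. Lefty1 was also among the 4 genes of the list with the highest FPKM summed over the 4 libraries, the measure of abundance used for each list here. The other 3 did not pass, namely the co-receptor Tdgf1 with 208.6 FPKM in wild type and 153.7 in CAST-/129-, Lefty2 with 29.1 and 87.7 and the effector Foxh1 with 35.3 and 36.2. Nodal itself, chosen after its values were seen, had 19.7, 24.4, 31.8 and 45.3 FPKM, a log2 ratio of 1.06 in CAST-/129-.

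Of 17 Wnt ligands, receptors and secreted regulators, 1 was past 3-fold up and 1 down in CAST-/129-. The receptor Fzd2 had 0.532, 5.24, 9.87 and 14.2 FPKM from wild type to CAST-/129-. The secreted Wnt antagonist Sfrp1 had 59.4, 2.77, 28.4 and 11.5 FPKM, lowest in CAST+/129-. Fzd5 was also past 3-fold down in CAST+/129-, with 8.47 FPKM against 44.6 in wild type. Other secreted antagonists, named after their values were seen, differed from Sfrp1. Sfrp5 had 0.466, 0.338, 13.3 and 5.51 FPKM and was past 3-fold up in CAST-/129+, as Fzd2 was, and Dkk1 had 3.37, 0.265, 15.2 and 13.2 FPKM, likewise low in CAST+/129-. The other abundant receptors, Fzd7 and Lrp5, had 23.9 and 23.6 FPKM in wild type and 17.7 and 24.4 in CAST-/129-. Of 14 nuclear effectors and known targets of Wnt signalling, 0 passed 3-fold in any clone. Ctnnb1, the β-catenin gene, was at 111.0 FPKM in the wild type clone and 127.1 in CAST-/129-, and the factors Tcf7l1, Tcf7 and Tcf7l2 had 41.9, 15.1 and 5.84 against 32.7, 18.9 and 5.36. Lef1, the remaining TCF/LEF factor, was near the floor in wild type and above it in each mutant clone. It had 14, 578, 357 and 241 counts, or 0.0651, 5.36, 6.81 and 4.78 FPKM, with log2 ratios of 1.20 in CAST+/129-, 1.41 in CAST-/129+ and 1.11 in CAST-/129-, under the 3-fold threshold once 4 is added. Lef1 was chosen after its values were seen. Axin2, a target used as a readout of the pathway and chosen in the same way, had 3.87, 1.71, 3.90 and 7.69 FPKM. Further targets on the list were also named after their values were seen. Nkd1 had the order of Axin2, with 1.41, 0.432, 1.67 and 2.42 FPKM. Sp8, Cdx2 and Lgr5 had a higher FPKM in each successive library, Sp8 with 0.165, 0.485, 0.855 and 1.15 FPKM, but from few counts. Sp8 had 19, 28, 24 and 31 counts and Cdx2 4, 20, 15 and 21, and the steps between neighbouring libraries were not tested. Notum had 1.55, 1.33, 1.99 and 1.57 FPKM, and Rnf43 had 13, 4, 12 and 7 counts. Lgr5 had 0, 4, 60 and 63 counts, Cdx1 had 4.23, 0.550, 0.472 and 3.72 FPKM, and Znrf3 had 5.96 FPKM in wild type and a lower level in each mutant clone.

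In the FGF pathway, Fgf5 was the 1 gene of 14 past 3-fold up in CAST-/129- and Etv4 the 1 past 3-fold down. Fgf5, a ligand of the epiblast, had 0.129, 4.01, 26.9 and 24.5 FPKM from wild type to CAST-/129-, near equal in CAST-/129+ and CAST-/129- as Fgf8 was. Etv4, an ETS factor downstream of FGF signals, had 47.1, 17.2, 9.78 and 10.7 FPKM. The abundant genes Etv5, Dusp6, Fgf4 and Spry2 had 62.7, 52.4, 53.8 and 56.6 FPKM in wild type and 46.2, 36.1, 22.5 and 27.8 in CAST-/129-.

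Of 20 genes of the mesoderm and mesendoderm that leave the streak, 2 were past 3-fold up in CAST-/129- and 2 down. Hand1 had 0.524, 43.9, 43.8 and 19.8 FPKM from wild type to CAST-/129-, and is also a trophectoderm gene. Lhx1, a factor of the anterior streak, had 0.0488, 0.117, 14.9 and 10.3 FPKM, near the floor in wild type and CAST+/129- as Gsc was. Unlike Gsc, it was lower in CAST-/129- than in CAST-/129+. The genes past 3-fold down were Tbx3, with 101.1 FPKM in wild type and 10.4 in CAST-/129-, which is also an ESC marker, and Pdgfra, with 22.6 and 4.48. Of the other abundant genes, Otx2 had 3.20, 23.9, 28.3 and 15.2 FPKM, the order of Eomes, and Snai1 had 10.8, 9.21, 9.27 and 10.1. Of the same list, Mesp2, Tbx6 and Msgn1, factors of the paraxial mesoderm, were named after their values were seen. Mesp2 was highest in wild type, with 121, 19, 0 and 13 counts, or 2.52, 0.788, 0 and 1.15 FPKM, a level in wild type above that of every streak regulator but Eomes. Tbx6 had 0.201, 0.667, 0.183 and 0.665 FPKM, and Msgn1 had 2 counts in CAST-/129- and 0 in the other 3 libraries.

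ChIP-seq shows the promoters of these genes in ESCs that carry the super-enhancer. Alignments within 2 kb of each annotated start were counted and divided by the mean density of the autosomes of the same library, which gives 11.2 alignments per window in F123 H3K4me3, 2.50 in F123 H3K27ac and 12.3 in J1 H3K27ac. H3K4me3 in F123 was above the mean at all 10 starts, with 9.10-fold (7.42 to 11.0) at Eomes and 5.53-fold (4.24 to 7.09) at Mesp1. T, Fgf8, Sp5 and Mixl1 had 4.19-fold, 3.83-fold, 3.57-fold and 3.48-fold, Gsc, Wnt3 and Wnt8a 2.76-fold, 2.68-fold and 2.50-fold, and Evx1 1.61-fold (0.951 to 2.54), the only one whose interval includes the mean. Over 5-fold were 2 of the 10, against 45.6% of the 21993 protein-coding starts. This count depended on the window, with 5 of 10 within 1 kb, against 52.1%, and 0 of 10 within 5 kb, against 25.5%. Eomes, the member with the highest RNA in wild type, thus had the highest H3K4me3, while Mesp1 had the second highest with RNA at the floor.

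Most genes at high H3K4me3 are expressed, so the 12602 protein-coding genes with under 4 FPKM in wild type were added as a background after the data were seen. Their median was 1.34-fold and 18.5% of them were over 5-fold, so that each of the 10 members lay above that median, Evx1 at percentile 54.5 and Eomes at percentile 93.4. In bins of 250 bases, the highest H3K4me3 at Eomes was 28.5-fold at 625 bases after the start and at Mesp1 24.3-fold at 875 bases after it. Mixl1 and Fgf8 had 15.7-fold at 125 bases after the start, and T 12.8-fold at 375 bases before it. Fgf8 had a further bin of 21.4-fold at 3625 bases before its start. In bins of 1 kb, joined across gaps of up to 2 kb, its domain spanned 8000 bases, of which 5 bins were over 5-fold. The highest, 43.2-fold, was centred 6096 bases before the start, outside the plotted window and 497 bases from the annotated start of another gene, Gm15491. The domain is not an unbroken run. Bins of 250 bases from 2375 to 875 bases before the start had at most 2.85-fold. The bins of 250 bases hold 20 alignments or fewer.

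**Figure D4:**
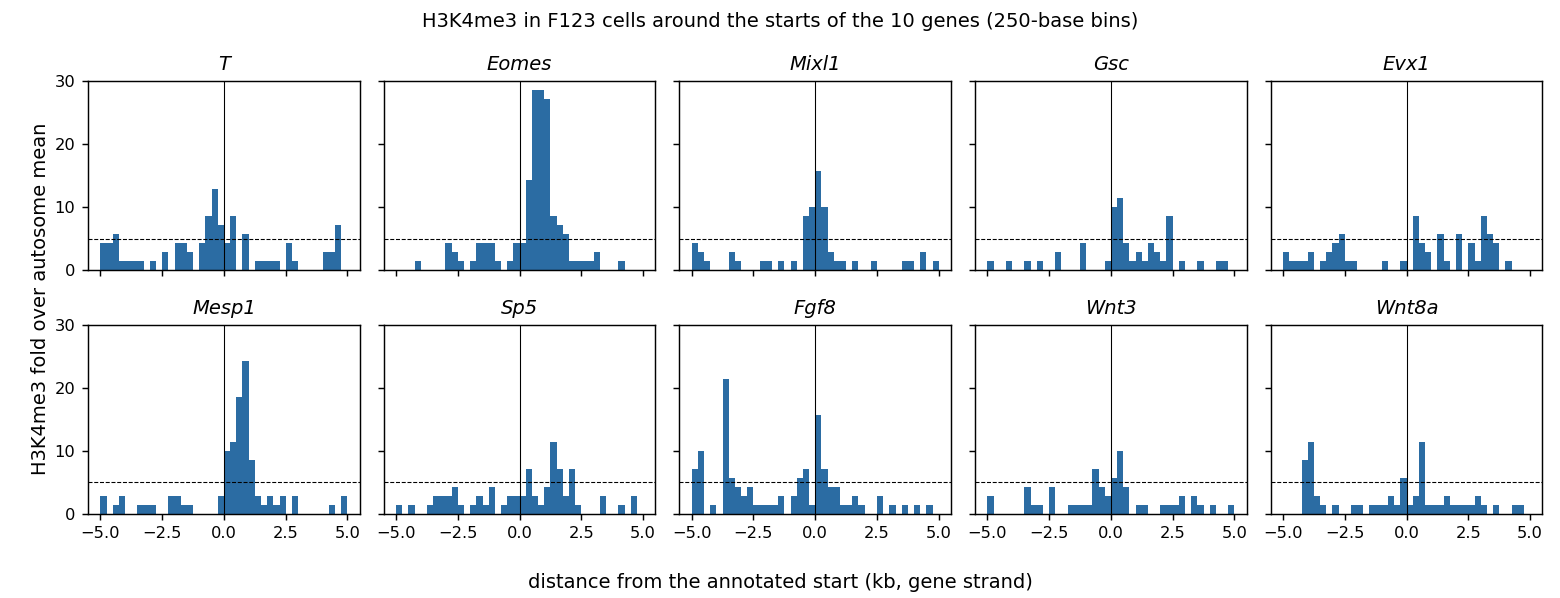
H3K4me3 in F123 cells around the 10 annotated starts, as fold over the autosome mean in bins of 250 bases, with the distance from the start in kb on the horizontal axis and a dashed line at 5-fold. Eomes and Mesp1 have the highest bins next to the start, 28.5-fold and 24.3-fold, and Fgf8 has a further high bin, 21.4-fold at 3625 bases before its start.

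H3K27ac within 2 kb of these starts was under 5-fold for every member in both lines. In J1 the fold was between 0.814 at Mixl1 and 2.44 at Wnt8a, with 10 to 30 alignments per window, and 0 of 10 were over 5-fold, against 21.9% of protein-coding starts and 6.03% of those under 4 FPKM in wild type, as each member was. In F123 it was between 0.400 at T and Gsc and 3.60 (1.65 to 6.84) at Wnt8a, and 0 of 10 were over 5-fold, against 27.5% of protein-coding starts and 6.79% of those under 4 FPKM. The F123 windows held 1 to 9 alignments, so that differences between the members were not detectable at this depth, except that Wnt8a was above the mean. J1 has no RNA-seq library here, so the wild type RNA set beside its marks is that of F123. Wnt8a, which had the second highest RNA in wild type, had the highest value in both lines, but its intervals overlap those of other members. In J1 it had 2.44-fold (1.65 to 3.49), against 2.12-fold (1.38 to 3.10) at Evx1 and at Mesp1, whose wild type RNA was near the floor. In bins of 1 kb Wnt8a had 2 over 5-fold in F123, the higher with 8.01-fold centred 466 bases before the start. Its highest bin of 250 bases, 125 bases before the start, had 19.2-fold from 3 alignments. No other member had a bin of 1 kb over 5-fold at its start for H3K27ac in either line, and in J1 the highest such bin of Wnt8a had 4.24-fold. Farther from the start, F123 had bins of 250 bases as high or higher at other members, 25.6-fold from 4 alignments at -4875 bases from the start of T and 19.2-fold from 3 alignments at -3125 bases from that of Wnt3. At the start of Sox2, for scale, F123 had 33.6-fold H3K4me3 and 111-fold H3K27ac, and J1 had 44.4-fold H3K27ac. Among genes under 4 FPKM in wild type, the H3K27ac medians of F123 and J1 were 0.400-fold and 0.977-fold, and 8 and 9 of the 10 members lay above them. In F123 that median is 1 alignment, the count of T and Gsc, and Mixl1, Fgf8 and Sp5 lay above it with 2. In J1 the intervals of Eomes, Sp5, Fgf8, Gsc and Wnt3 include the median. These counts therefore do not show that the set carries more H3K27ac than other low genes. No ChIP-seq of the deletion clones was analysed here, so that the marks and the RNA of the clones could not be set side by side in the same cells.

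**Figure D5:**
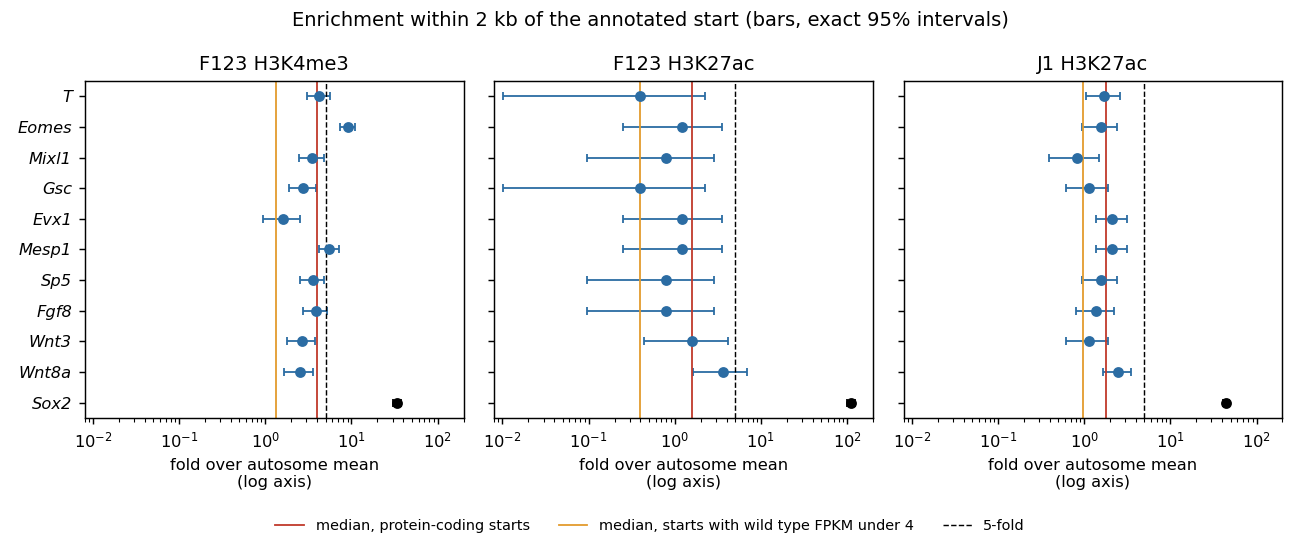
Fold over the autosome mean within 2 kb of the start (log axis) for the 10 genes and Sox2 in each ChIP-seq library, with exact 95% Poisson intervals, the medians of all protein-coding starts and of those under 4 FPKM in wild type, and a dashed line at 5-fold. For H3K4me3 all 10 lie to the right of the median of low-expressed genes, and for H3K27ac none reaches 5-fold, while Sox2 lies beyond 30-fold in each panel.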

How the data were processed

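All 7 libraries, 1 per condition, were grouped by their labels. The authors mapped RNA-seq reads with Novoalign and ChIP-seq reads with Bowtie to mm9 and deposited the aligned positions, where each line is a distinct alignment and holds its count of reads. Alleles were not told apart, and the mapping of CAST reads to this reference was not tested.

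From these files, distinct RNA-seq alignments, which carry the strand opposite to the transcript, were assigned by their midpoint to exonic bases owned by 1 GENCODE M1 gene of that strand, in 31498 genes with at least 200 such bases. Library size for FPKM was the sum over these genes, and 4 was added to FPKM before log2 ratios were taken, with 3-fold as the threshold. ChIP-seq alignments were counted by their 5′ end within 2 kb of each annotated start, with no input. The 22 chromosome names of each file are those of NCBIM37, and no position lies past a chromosome end.

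Levels have exact 95% Poisson intervals and ratios exact binomial ones, for counting error alone. No test was possible, as each condition has 1 library. The rule recovered 100 of 100 genes raised 6-fold, 100 of 100 lowered 6-fold and 96 of 100 low genes set to 20 FPKM on data simulated for CAST-/129- against wild type over 31498 genes, and called 0 of 31198 unchanged genes. With 1 library per genotype, the spread between clones is not known and could not be simulated. These counts therefore give no rate of false calls between clones.

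The genes, the lists and the tests were chosen with earlier results of these data known. Named besides the members are genes of each pathway list past 3-fold in CAST-/129- and up to 4 of its most abundant genes, and for each member past 3-fold the 2 nearest genes over 3 log2 ratios. Sox1 and Tfap2c were not matched in the lists. Library size, strand, collapsing, depth, assignment, added value, threshold, window and denominator were varied. Counting alignments 2 bases apart once, the comparison of the monoallelic clones, the low-expressed promoters and the neighbouring genes were added after the data were seen. Scripts ran under Python 3.11.15 with scipy 1.17.1, numpy 2.4.6, pysam 0.24.0, pandas 2.3.3 and matplotlib 3.10.9.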

Additional observations from a re-analysis of the deposited data

How the results depend on the processing

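The count of members past 3-fold depended mainly on the value added to FPKM, on the threshold and on whether each start position was counted once. Every member was under 4 FPKM in wild type. Percentages in parentheses are the share of all genes up in the same setting. In CAST-/129- 5 members passed, against 3 with 10 added, 8 at a 2-fold threshold, where 630 of the 31498 genes were up, and 3 at a 5-fold threshold, where 0.327% were. The count there was 7 with each start position counted once (0.743%) and 6 with library sizes by median of ratios (0.860%). In CAST-/129+ 3 passed, against 5 with each start position counted once (0.451%), 7 with 1 added, 0 with 10 added, 6 at 2-fold (1.22%) and 1 at 5-fold (0.178%). In CAST+/129- 0 passed, against 1 with 1 added and 1 at 2-fold (0.905%). For CAST-/129- against CAST+/129- the 4 members became 7 with 1 added (0.946%), 1 with 10 added (0.0889%), 7 at 2-fold (1.06%) and 2 at 5-fold (0.0476%). They became 6 with each start position counted once (0.206%) and 5 with thinned libraries (0.257%). For CAST-/129- against CAST-/129+ the 0 members became 3 with 1 added (0.771%) and 3 at 2-fold (0.822%). The 10 pathway genes past 3-fold became 24 with 1 added, 5 with 10 added, 26 at 2-fold and 5 at 5-fold. The 12 log2 ratios past 3-fold were past it in 117 of their 132 alternative values, and no direction is read from these, since several alternatives cannot change a sign. Wnt3 in CAST-/129- passed in 5 of its 11 alternatives, T in CAST-/129+ in 8 of 11, and Gsc, just under the threshold in CAST-/129-, in 3 of 11. H3K4me3 over 5-fold at 2 members became 5 within 1 kb, 0 within 5 kb, 0 at a 10-fold threshold (25.4% of protein-coding starts) and 6 at 3-fold (55.1%), and F123 H3K27ac at 0 members became 1 at 3-fold (36.2%). No paired analysis was possible because each condition has 1 library. Depth limits Mesp1 and Evx1, the wild type values of Gsc, Fgf8 and Sp5, with 6, 4 and 0 counts, and the F123 H3K27ac windows.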

Other observations

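Markers of other cell types, beside the trophectoderm and fibroblast lists, also differed between the libraries. Of all genes, between 0.305% and 0.511% were past 3-fold down in a mutant clone, and between 0.321% and 0.819% were up. Of 8 primitive endoderm markers, 3 were past 3-fold down in each mutant clone, among them Gata6, with 42.9, 2.94, 6.77 and 4.51 FPKM in the order wild type, CAST+/129-, CAST-/129+ and CAST-/129-. They summed to 200 FPKM in wild type and to 48.8, 84.7 and 53.3 in the mutant clones, and none was at 0. Foxa2, which is on that list and is also a factor of the anterior streak and the endoderm it gives, had its highest levels elsewhere, with 1.36, 0.643, 9.05 and 11.4 FPKM. Of 7 neuroectoderm markers, 2 were past 3-fold up in CAST+/129-, Nes and Otx2, 1 in CAST-/129+, Otx2, and 1 in CAST-/129-, Nes. The intermediate filament gene Nes had 1.80, 14.3, 10.5 and 19.9 FPKM. Pax6 was under 0.15 FPKM in every library, and Hes5 and Neurog2 had 0 counts in all but CAST+/129-.

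Of 10 ESC markers, 5 were past 3-fold down in CAST-/129-, namely Nanog, Zfp42, Klf4, Esrrb and Tbx3, where 0.511% of all genes were. In each monoallelic clone 2 were, Klf4 and Tbx3, where 0.305% of all genes were in CAST+/129- and 0.330% in CAST-/129+. The germline and naive ESC gene Dppa3 was the 1 marker up in all 3, with 6.86, 89.4, 108.4 and 31.1 FPKM from wild type to CAST-/129-. Dppa3 was highest in the monoallelic clones, as Eomes, Hand1 and Otx2 were. The 10 markers summed to 1146, 990, 937 and 614 FPKM.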
